A study of Mus musculus with 16 samples.

Results

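The genes described here encode the cargo and the release machinery of chromaffin granules, the dense-core secretory vesicles of the adrenal medulla. The set holds 38 genes out of 54838 gene identifiers in the deposited count file, and it was chosen by symbol: every row whose Ensembl identifier belongs to a listed gene in the GENCODE M21 annotation. All 38 were found, all are protein-coding, and all 38 passed the filter on low counts that left 18214 genes for testing. Adrenal glands came from 4-week-old mice of a mixed genetic background, in 4 groups of 4 individual mice, and their messenger RNA was measured by RNA sequencing of the bulk tissue. The groups were female control, female Rspo1 GOF, male control and male Rspo1 GOF. GOF stands for gain of function, and R-spondin 1, the product of Rspo1, is secreted and makes cells more responsive to WNT ligands. The allele and promoter behind the gain of function, and the genotype of the mice labelled control, are not given in the sources used here. The series asked how sex shapes adrenal gene expression with and without the gain of function.

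Chromaffin cells store catecholamines together with granins and neuropeptides in dense-core granules, and they release all of these at once when acetylcholine from the splanchnic nerve opens nicotinic receptors. Granins are acidic proteins that help to form the granule, prohormone convertases and carboxypeptidase E cut the stored precursors into active peptides, and SNARE proteins on vesicle and plasma membrane then fuse the granule with the cell surface under the control of calcium-binding synaptotagmins. Most of these proteins also serve synapses of neurons and other endocrine cells, so the set is shared between cell types and is not a marker of the medulla alone.

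Library totals ran from 31275146 to 43003968 counts. Rspo1 was between 354 and 532 CPM (counts per 1e6 counts of the scaled library) in female GOF and between 3.20 and 40.6 in female controls, and between 535 and 972 in male GOF and between 19.4 and 48.2 in male controls, so each of the 16 libraries matched its genotype label. The summed level of 8 markers of steroid-producing cortex was between 29348 and 48759 CPM over the 16 libraries, and that of 8 catecholamine genes between 106 and 3729. Some control libraries also held transcripts of other tissues. Male control 2 had a summed level of 8292 CPM for 8 liver genes, against 56.2 or less in the other 15 libraries. In that library 8 neuron markers summed to 439.6 CPM, against 33.7 or less elsewhere, and 8 Schwann cell markers to 324, against 132 or less. Male control 2 also had 88.4 CPM over 8 skeletal muscle genes, against 5.49 or less in the other 15 libraries. Female control 1 and female control 3 had 914 and 160.5 CPM over 8 kidney genes, against 2.05 or less in the other 14 libraries. Male values are given with and without male control 2 where leaving it out ends a call or moves a fold change by more than 1.5 times, which it did for 14 of the 34 members that fell in males.

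GOF adrenals held far less RNA of most granule and exocytosis genes than controls in both sexes. In females 31 of 38 members fell and 0 rose at an adjusted p of 0.05 (quasi-likelihood test of edgeR, Benjamini-Hochberg adjusted over 18214 genes), where 20.6% of all tested genes fell and 19.0% rose. In males 34 fell and 0 rose, where 21.8% of all tested genes fell and 15.2% rose. The median log2 fold change of the members was -3.12 in females and -4.12 in males, beside 0.05 and 0.01 for all tested genes. The 31 genes lower in females were lower in males as well, Cplx1, Cplx2 and Sv2c passed in males alone, and Cpe, Stx1a, Vamp2 and Rab3a passed in neither sex. Members whose 4 GOF libraries all lay below their 4 control libraries numbered 34 in females, where 20.4% of tested genes did so, and 32 in males, where 19.1% did. In bulk RNA from a whole gland, fewer chromaffin cells and less RNA per cell cannot be told apart. All 8 catecholamine genes fell too in females and males, where their median log2 fold changes were -3.32 and -3.78.

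**Figure D1:**
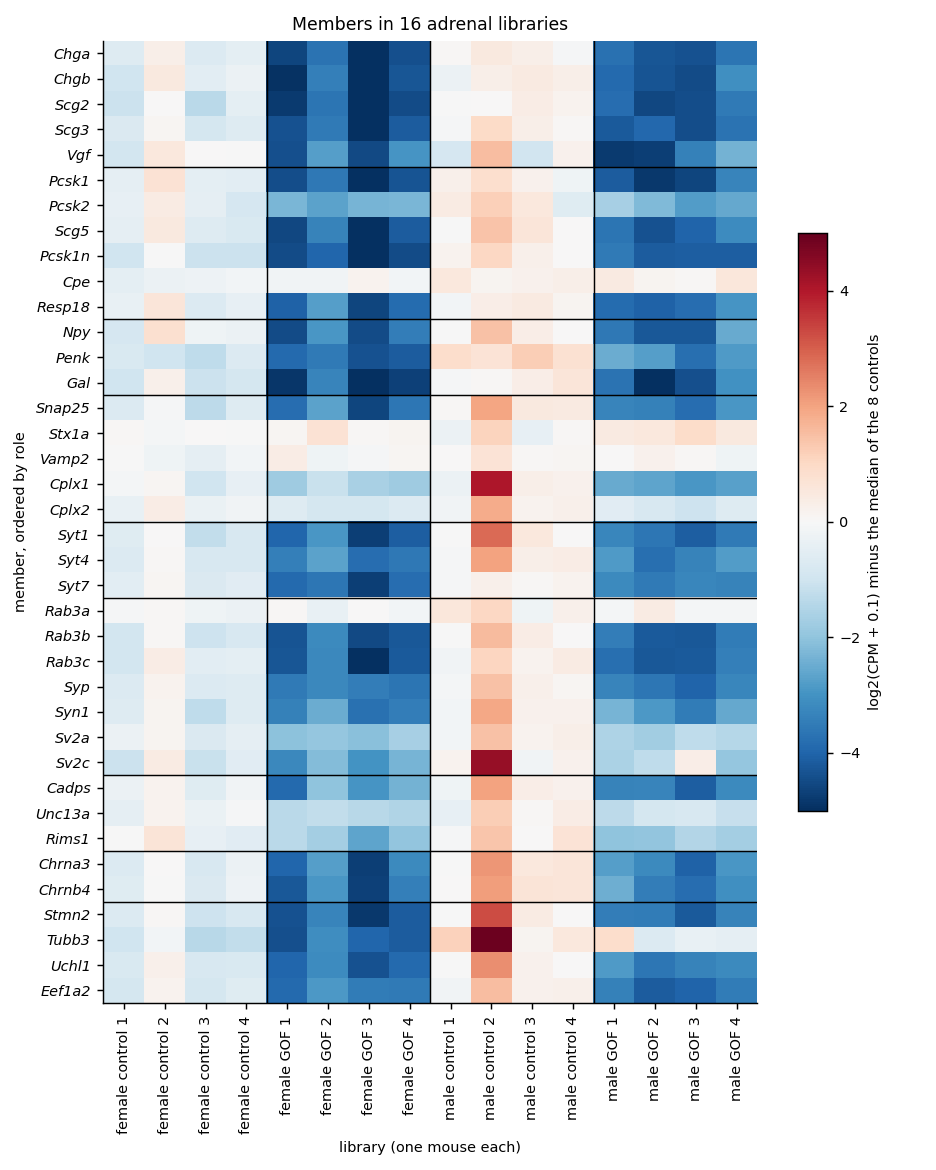
Colour gives log2(CPM + 0.1) of each member (rows, ordered by role) in each of the 16 libraries (columns) minus the median of the 8 control libraries for that gene. Most rows turn blue in the 8 GOF libraries, the rows of Cpe, Stx1a, Vamp2 and Rab3a stay pale, and male control 2 is the darkest red column, with Tubb3, Sv2c and Cplx1 at the top of the scale.

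Granins and their relatives fell in both sexes, all 5 of them, and between 4.51% (Scg3 in males) and 8.03% (Vgf in females) of the control mean was left. Chgb (ENSMUSG00000027350, chromosome 2, 132781278 to 132795079), which encodes the granin chromogranin B and was the most abundant member in CPM, had 1998, 5597, 2825 and 3305 CPM in the 4 female controls and 131, 377, 92.5 and 208 in the 4 female GOF libraries. In males it had 3310.2, 4889.8, 5546 and 4910.2 CPM in controls and 275, 200.1, 182 and 482 in GOF. The highest GOF library of either sex lay far below the lowest control, and no groups of different genotype overlapped. Its level was 16.97-fold lower in female GOF (log2 fold change -4.08 ± 0.479 SE, adjusted p = 2.06e-05) and 16.4-fold lower in male GOF (-4.03 ± 0.478, adjusted p = 1.67e-05, edgeR). Chga (ENSMUSG00000021194, chromosome 12, 102554969 to 102565028) encodes chromogranin A, the granin used as a general marker of neuroendocrine cells. It had 1844, 3452, 1787 and 2052 CPM in female controls and 120.0, 223, 63.9 and 135 in female GOF, 2970.3, 4021, 3523 and 2744 in male controls and 213, 145, 138 and 229.6 in male GOF. The drop in Chga was 16.8-fold in females (adjusted p = 2.10e-06) and 18.3-fold in males (adjusted p = 1.24e-06, edgeR). Per length, Chga was the highest member in controls, at 2007 ± 660.3 FPKM (fragments per kilobase and 1e6 fragments) in females and 2943 ± 467 in males (SD, n = 4), ahead of Chgb at 1203 ± 522 and 1659.9 ± 356. Scg2, the precursor of secretoneurin, was left at 7.18% of the control mean in females and 5.56% in males. Scg3, a granin-binding protein of the granule membrane, was left at 7.39% and 4.51%. Vgf, a precursor of several neuropeptides induced by growth factors, was the scarcest granin, at 6.96 ± 2.62 CPM in female controls and 9.03 ± 7.98 in male controls, and 8.03% and 6.03% of these were left. Its male log2 fold change of -4.05 was -3.26 without male control 2, which left 10.5%, and -4.89 without male GOF 4.

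Since granin genes fell together, their promoters were searched for the cyclic AMP response element, the site at which CREB-family factors bind and through which stimulation of chromaffin cells is known to raise granin transcription. RefSeq promoter windows (GRCm38.p6, 250 bases before to 50 after the start) were matched for 30 of the 38 members, and the palindrome TGACGTCA, searched on both strands, stood in windows of 4 of them: Chgb, Scg2, Pcsk1 and Syn1. Over all 32851 windows 1.79% hold it. Vgf, Cpe, Penk, Snap25, Vamp2, Syt4, Syt7 and Stmn2 had no window, so their promoters were not searched for any element. The Chga window holds the variant TGACGTAA, found in 0.499% of windows. The shorter core TGACGT, which both longer forms include, stood in windows of 7 members and in 7.51% of all windows. The other two were Scg5, which fell in both sexes, and Rab3a, which passed in neither. A match is a description of the sequence alone. The stretches are shown 5′ to 3′ on the gene's strand, with the element in capitals, for the 5 members that hold 1 of the longer forms.
Chga, chr12:102554841-102554940, plus strand: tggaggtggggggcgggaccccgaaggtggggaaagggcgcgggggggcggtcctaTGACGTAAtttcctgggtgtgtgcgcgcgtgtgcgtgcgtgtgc
Chgb, chr2:132781559-132781588, plus strand: gggctgctccgTGACGTCAgggctgagcga
Scg2, chr1:79440076-79440105, minus strand: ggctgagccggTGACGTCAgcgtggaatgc
Pcsk1, chr13:75089757-75089825, plus strand: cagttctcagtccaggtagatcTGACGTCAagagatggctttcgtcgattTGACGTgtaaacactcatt
Syn1, chrX:20921059-20921158, minus strand: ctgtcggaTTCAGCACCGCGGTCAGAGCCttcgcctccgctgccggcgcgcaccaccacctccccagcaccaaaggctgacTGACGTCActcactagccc
The element began 44 bases before the RefSeq start in Chga, 72 in Chgb, 68 in Scg2, 78 in Pcsk1 and 159 in Syn1. In Pcsk1 the second capital run is another copy of the core, beginning 50 bases before the start. The printed stretches of Chgb and Scg2 lie within an exon of the same gene in GENCODE M21, where the gene starts further upstream. In Syn1, which encodes the vesicle protein synapsin I, the first capital run is a match to the RE1 element, the site of the neuronal repressor REST: it has at least 17 of the 19 fixed letters of the RE1 consensus, searched on both strands, as do 10 of all windows (0.0304%), and no other member window reached that number.

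Of 6 genes for prohormone processing, 5 fell in both sexes and Cpe did not pass. Pcsk1 (ENSMUSG00000021587, chromosome 13, 75089826 to 75134861) encodes prohormone convertase 1/3, which makes the first cuts in peptide precursors, and it had the most negative change of all members in females. It stood at 28.5, 64.4, 27.8 and 27.4 CPM in female controls against 1.73, 3.23, 0.717 and 1.89 in female GOF, and at 47.1, 70.3, 45.5 and 33.7 in male controls against 2.07, 1.29, 1.55 and 3.87 in male GOF. These groups did not overlap, and female control 2 lay apart from the other female controls. Its log2 fold change reached -4.27 ± 0.476 (SE) in females (adjusted p = 1.39e-05) and -4.49 ± 0.479 in males (adjusted p = 7.08e-06, edgeR). Pcsk2, the convertase that acts later in the granule, kept more: 20.9% of the control mean in females and 13.7% in males, from control means of 4.93 ± 2.01 and 8.36 ± 4.002 CPM. Scg5, which encodes 7B2, the chaperone of convertase 2, was left at 6.37% and 4.72%, and Pcsk1n, which encodes proSAAS, an inhibitor of convertase 1/3, at 7.34% and 4.72%. Resp18, a small protein of the endocrine secretory pathway, was left at 8.22% and 6.72%.

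Cpe (ENSMUSG00000037852, chromosome 8, 64592542 to 64693054) encodes carboxypeptidase E, which trims the ends left by the convertases, and it stood out from the enzymes it works with. It had 822, 927, 964 and 1033 CPM in female controls and 1010.0, 999.9, 1287 and 1026 in female GOF. In males the values were 1651, 1258, 1333 and 1410.5 in controls and 1574, 1242, 1194 and 1707 in GOF. GOF and control libraries overlapped in both sexes. Its log2 fold change stood at 0.21 ± 0.132 (SE) in females (adjusted p = 0.229) and 0.02 ± 0.132 in males (adjusted p = 0.938, edgeR), and the male value changed sign under some settings, as given in the closing section. Furin, the ubiquitous relative of the convertases and no member of the set, also did not pass in either sex, with log2 fold changes of -0.04 and 0.13.

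All 3 peptide genes fell in both sexes. Npy (ENSMUSG00000029819, chromosome 6, 49822710 to 49829507), the precursor of neuropeptide Y, which chromaffin cells release with catecholamines, had 81.9, 253, 125 and 117 CPM in female controls and 6.37, 19.2, 6.48 and 13.1 in female GOF. Male values were 143, 398, 182 and 147 in controls and 12.2, 7.57, 7.66 and 25.3 in GOF. The highest values of the control groups, in female control 2 and male control 2, were more than 2 times the next, and GOF libraries lay below every control. The fall was 12.7-fold in females (adjusted p = 0.000151) and 16.5-fold in males (adjusted p = 6.59e-05, edgeR). Penk (ENSMUSG00000045573, chromosome 4, 4133531 to 4138819), the precursor of the enkephalins, which are opioid peptides, had 18.5, 15.4, 12.9 and 19.4 CPM in female controls and 2.02, 2.59, 1.43 and 1.63 in female GOF. In males its values were 57.5, 49.7, 72.5 and 53.3 in controls and 5.49, 4.46, 2.204 and 4.26 in GOF. Penk was the peptide with a clear difference between the sexes: every male control lay above every female control. It fell 8.58-fold in females (adjusted p = 1.44e-06) and 14.2-fold in males (adjusted p = 2.64e-07, edgeR). Gal, the precursor of galanin, averaged 32.8 ± 16.7 CPM in female controls against 2.39 ± 1.64 in female GOF, and 57.9 ± 12.01 against 3.28 ± 1.93 in males (SD, n = 4). Leaving out female GOF 2 took its female log2 fold change from -3.76 to -4.42.

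Genes of the core fusion machinery divided. Snap25, which encodes a SNARE of the plasma membrane, fell to 13.1% of the control mean in females and 5.13% in males (7.77% without male control 2). Its partners Vamp2, the vesicle SNARE synaptobrevin 2, and Stx1a, the plasma membrane SNARE syntaxin 1A, passed in neither sex. Vamp2 (ENSMUSG00000020894, chromosome 11, 69088490 to 69092384) had 167, 146, 125 and 154 CPM in female controls and 222, 145, 165 and 180.3 in female GOF, 174, 271, 176 and 182 in male controls and 175, 198, 176 and 148 in male GOF. These ranges overlapped in both sexes, with log2 fold changes of 0.27 ± 0.157 (SE) in females (adjusted p = 0.190) and -0.20 ± 0.156 in males (adjusted p = 0.328, edgeR). Stx1a (ENSMUSG00000007207, chromosome 5, 135023482 to 135051100) had 12.5, 11.2, 12.2 and 11.9 CPM in female controls and 13.04, 19.8, 12.7 and 13.2 in female GOF. Male values were 9.72, 26.2, 8.996 and 12.6 in controls and 16.6, 17.5, 22.5 and 16.9 in GOF. Its 4 female GOF libraries all lay above the 4 female controls, which 17.4% of tested genes did, but the change did not pass (0.30 ± 0.272 on the log2 scale, adjusted p = 0.403). In males only control 2 exceeded the GOF libraries, and the change was 0.36 ± 0.272 (adjusted p = 0.325, edgeR). Without male control 2, Stx1a rose in male GOF by 0.81 ± 0.175 on the log2 scale (adjusted p = 0.00291), the 1 member called higher in that fit.

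Complexins clamp and trigger the assembled SNARE complex, and the calls of their 2 genes differed between the sexes and with a single library. Cplx1 (ENSMUSG00000033615, chromosome 5, 108518554 to 108550024) had 2.16, 2.49, 1.11 and 1.73 CPM in female controls and 0.614, 1.01, 0.687 and 0.6004 in female GOF. In males it had 1.85, 39.7, 2.87 and 2.69 CPM in controls and 0.318, 0.286, 0.225 and 0.272 in GOF. Every GOF library lay below every control of its sex, and male control 2 was 14.8 times the median of the other 3 male controls. For females the log2 fold change was -1.35 ± 0.794 (SE), which did not pass (adjusted p = 0.192), and -5.40 ± 0.929 in males (adjusted p = 0.000406, edgeR). Without male control 2 the male value was -3.15 ± 0.321 (adjusted p = 5.19e-06), and the female value, -1.35 ± 0.284, then passed with an adjusted p of 0.00182. Cplx2 went from 100.6 ± 26.1 to 63.1 ± 5.27 CPM in females (adjusted p = 0.144) and from 184 ± 140.6 to 63.9 ± 9.25 in males (adjusted p = 0.00411). Without male control 2 it passed in both sexes, with log2 fold changes of -0.67 ± 0.158 in females (adjusted p = 0.00386) and -0.84 ± 0.169 in males (adjusted p = 0.00180, edgeR). The spread was estimated over all 16 libraries in 1 model, so a library of male controls also enters the error of the female comparison: the standard error of Cplx1 in females was 0.794 with male control 2 and 0.284 without it.

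Synaptotagmins sense calcium and start fusion, and all 3 in the set fell in both sexes. Syt1 (ENSMUSG00000035864, chromosome 10, 108497650 to 109010982), the fast sensor of synapses and chromaffin cells, had 26.2, 40.4, 17.2 and 22.9 CPM in female controls and 2.46, 5.18, 1.43 and 2.23 in female GOF. Among males it was at 39.4, 286, 58.2 and 41.0 CPM in controls and 4.06, 3.20, 2.204 and 3.38 in GOF. Male control 2 was 6.97 times the median of the other male controls, which themselves lay far above the GOF libraries. It fell 9.33-fold in females (adjusted p = 0.00127) and 33.0-fold in males (adjusted p = 5.70e-05, edgeR), or 14.4-fold in males without male control 2 (adjusted p = 4.09e-06). Syt7, the high-affinity sensor of dense-core granules, was steadier between mice: 41.3 ± 11.2 against 3.44 ± 1.02 CPM in females and 59.2 ± 5.84 against 5.34 ± 0.545 in males (SD, n = 4). Its log2 fold changes had the smallest standard errors of the members that fell by more than 3, -3.58 ± 0.222 in females and -3.47 ± 0.219 in males. Syt4, a synaptotagmin of dense-core vesicles that binds calcium weakly, was left at 13.9% and 5.83%, or 9.46% in males without male control 2.

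**Figure D2:**
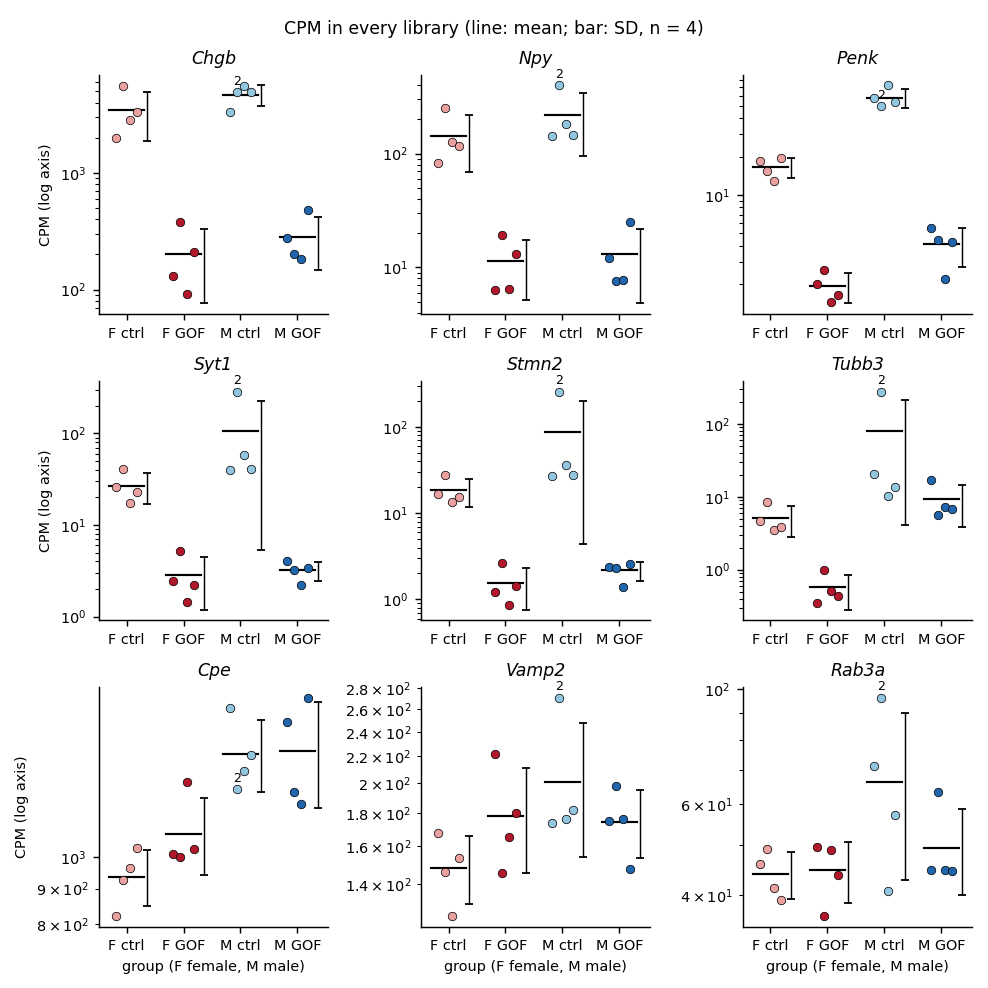
Each panel shows the CPM of a member (log axis) in the 4 mice of each group as points, with the mean as a line and the SD (n = 4) as a bar, and the digit 2 marks male control 2. Chgb, Npy, Penk, Syt1 and Stmn2 have GOF libraries well below controls in both sexes, Tubb3 overlaps in males, and Cpe, Vamp2 and Rab3a overlap in both sexes.

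Among 7 genes of Rab3 proteins and the vesicle membrane, 5 fell in females and 6 in males, and Rab3a did not pass in either. Rab3 GTPases dock vesicles, and the 3 paralogs measured differed. Rab3c (ENSMUSG00000021700, chromosome 13, 110054187 to 110280996) had 57.8, 140.6, 75.1 and 77.0 CPM in female controls and 5.53, 11.45, 2.54 and 5.78 in female GOF. Male values were 95.1, 231, 124 and 143 in controls and 7.93, 5.72, 5.83 and 10.03 in GOF. Groups did not overlap, and the fall was 13.7-fold in females (adjusted p = 1.75e-05) and 20.1-fold in males (adjusted p = 4.98e-06, edgeR). Rab3b fell 10.5-fold and 22.3-fold. Rab3a, by contrast, was at 46.0, 49.2, 41.4 and 39.2 CPM in female controls and 49.6, 36.5, 48.9 and 43.8 in female GOF, and at 71.1, 96.4, 40.7 and 57.2 in male controls and 44.7, 63.3, 44.7 and 44.6 in male GOF. The ranges overlapped. Its log2 fold changes were 0.02 ± 0.206 (SE, adjusted p = 0.935) in females and -0.43 ± 0.205 in males (adjusted p = 0.116, edgeR), and the male value passed without male control 3 (adjusted p = 0.0168) or male GOF 2 (0.0470). Syp, which encodes synaptophysin, the most abundant protein of small synaptic vesicles, was left at 11.8% of the control mean in females and 5.68% in males. Syn1, whose promoter is printed above, was left at 15.3% and 8.16%, or 13.3% in males without male control 2. Sv2a, a vesicle glycoprotein, kept more, at 32.03% and 23.3%, with adjusted p-values of 0.000535 and 6.80e-05. Its relative Sv2c had 5.38, 97.7, 4.11 and 5.47 CPM in male controls and 1.48, 1.91, 5.98 and 1.15 in male GOF, so that male GOF 3 lay above all male controls but control 2. Sv2c passed in males (log2 fold change -3.41 ± 0.983, adjusted p = 0.0144), but not without male control 2 (-0.92 ± 0.525, adjusted p = 0.207), and without male GOF 3 its change was -4.22. In females it had 2.16, 6.33, 2.09 and 3.11 against 0.409, 0.962, 0.508 and 0.858 CPM and a log2 fold change of -2.30 ± 0.992 (adjusted p = 0.0793), which passed without male control 2 (adjusted p = 0.00333, edgeR).

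Priming factors make docked vesicles ready for release, and all 3 measured fell in both sexes, to differing degrees. Unc13a (ENSMUSG00000034799, chromosome 8, 71624417 to 71671757), which encodes Munc13-1, had 12.9, 20.05, 13.8 and 16.7 CPM in female controls and 6.84, 7.42, 6.63 and 6.06 in female GOF. In males it had 13.3, 40.9, 18.5 and 23.0 in controls and 7.10, 9.49, 10.04 and 7.79 in GOF. Its groups did not overlap although the change was the smallest among the called members in both sexes with all 16 libraries. It was -1.23 ± 0.268 (SE) in females (adjusted p = 0.00219) and -1.47 ± 0.268 in males (adjusted p = 0.000587, edgeR). Without male control 2 the changes of Cplx2, called in both sexes there, were smaller, at -0.67 and -0.84. Its exons overlap those of Colgalt1 on the other strand, and whether the counting used strand is not given in the sources used here. Cadps, the CAPS protein that primes dense-core granules, was left at 17.8% in females and 4.72% in males, or 7.97% in males without male control 2. Rims1, an active zone scaffold, was the scarcest member, at 0.519 ± 0.248 CPM in female controls and 0.859 ± 0.478 in male controls, and female GOF 3 had 0 counts of it.

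The nicotinic receptor of chromaffin cells and autonomic ganglia is built mainly from the subunits that Chrna3 and Chrnb4 encode, neighbouring genes on chromosome 9, and both fell in both sexes. Chrna3 (ENSMUSG00000032303, chromosome 9, 55010111 to 55026562) had 15.9, 26.0, 14.7 and 20.9 CPM in female controls and 1.55, 3.71, 0.896 and 2.77 in female GOF. In males its values were 25.5, 120.1, 36.9 and 39.0 in controls and 3.68, 2.71, 1.45 and 3.32 in GOF. No GOF library reached a control, and the falls were 8.60-fold (adjusted p = 0.000360) and 19.8-fold (adjusted p = 2.97e-05, edgeR). Chrnb4 fell 10.4-fold in females and 19.1-fold in males. The male falls were 12.1-fold for Chrna3 and 12.4-fold for Chrnb4 without male control 2, which had the highest value of both. Of 7 other neuronal nicotinic subunit genes, 4 passed the filter, Chrna4, Chrna5, Chrna7 and Chrnb2, and all 4 fell in both sexes.

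Cytoplasmic proteins of neuroendocrine cells formed the last group, and all 4 genes fell in both sexes. Uchl1 (ENSMUSG00000029223, chromosome 5, 66676091 to 66687234), which encodes the ubiquitin hydrolase also called PGP9.5, had 37.0, 76.5, 36.6 and 37.4 CPM in female controls and 3.95, 7.10, 3.02 and 4.23 in female GOF. Among males it was at 63.1, 314, 74.1 and 63.8 in controls and 8.80, 5.03, 6.21 and 6.86 in GOF. All groups of different genotype were apart, with falls of 10.2-fold (adjusted p = 0.000249) and 19.1-fold (adjusted p = 3.85e-05, edgeR), the latter 9.98-fold without male control 2. Stmn2 (ENSMUSG00000027500, chromosome 3, 8509360 to 8561606), a microtubule regulator of growing axons, had 16.7, 28.1, 13.4 and 15.4 CPM in female controls and 1.23, 2.68, 0.866 and 1.43 in female GOF. In males it had 26.8, 258, 35.9 and 27.6 in controls and 2.39, 2.34, 1.40 and 2.60 in GOF. Its fall of 40.0-fold in males (adjusted p = 9.44e-05) was 13.8-fold without male control 2 (adjusted p = 2.36e-06, edgeR), and in females it was 11.7-fold (adjusted p = 0.00156). Eef1a2, the elongation factor form of neurons and muscle, fell 7.73-fold and 20.7-fold, whereas its ubiquitous paralog Eef1a1, no member, had log2 fold changes of -0.02 and 0.02 and passed in neither sex.

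Tubb3 (ENSMUSG00000062380, chromosome 8, 123411424 to 123422015), the tubulin beta chain of neurons, followed its own pattern. It had 4.64, 8.49, 3.48 and 3.90 CPM in female controls and 0.351, 0.985, 0.508 and 0.429 in female GOF, a fall that passed (-3.13 ± 1.04 SE, adjusted p = 0.0275, edgeR). That call was lost, with adjusted p-values from 0.0593 to 0.0683, when female control 2 or female GOF 1, 3 or 4 was left out, and also with no filter (0.0722), with the range of the title number as a covariate (0.0677), with log2(FPKM + 1) (0.0739, or 0.145 with no filter) and with voom (0.147). Its log2 fold change stayed between -2.78 and -3.15 in these fits apart from log2(FPKM + 1). In males its values were 20.7, 279, 10.1 and 13.4 CPM in controls and 17.1, 5.69, 7.16 and 6.80 in GOF. Each male GOF library thus lay above 3 of the 4 female controls, and male GOF 1 exceeded male controls 3 and 4. The male log2 fold change of -3.13 ± 0.912 (adjusted p = 0.0153) rested on male control 2, since without that library it was -0.68 ± 0.424 (adjusted p = 0.248).

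**Figure D3:**
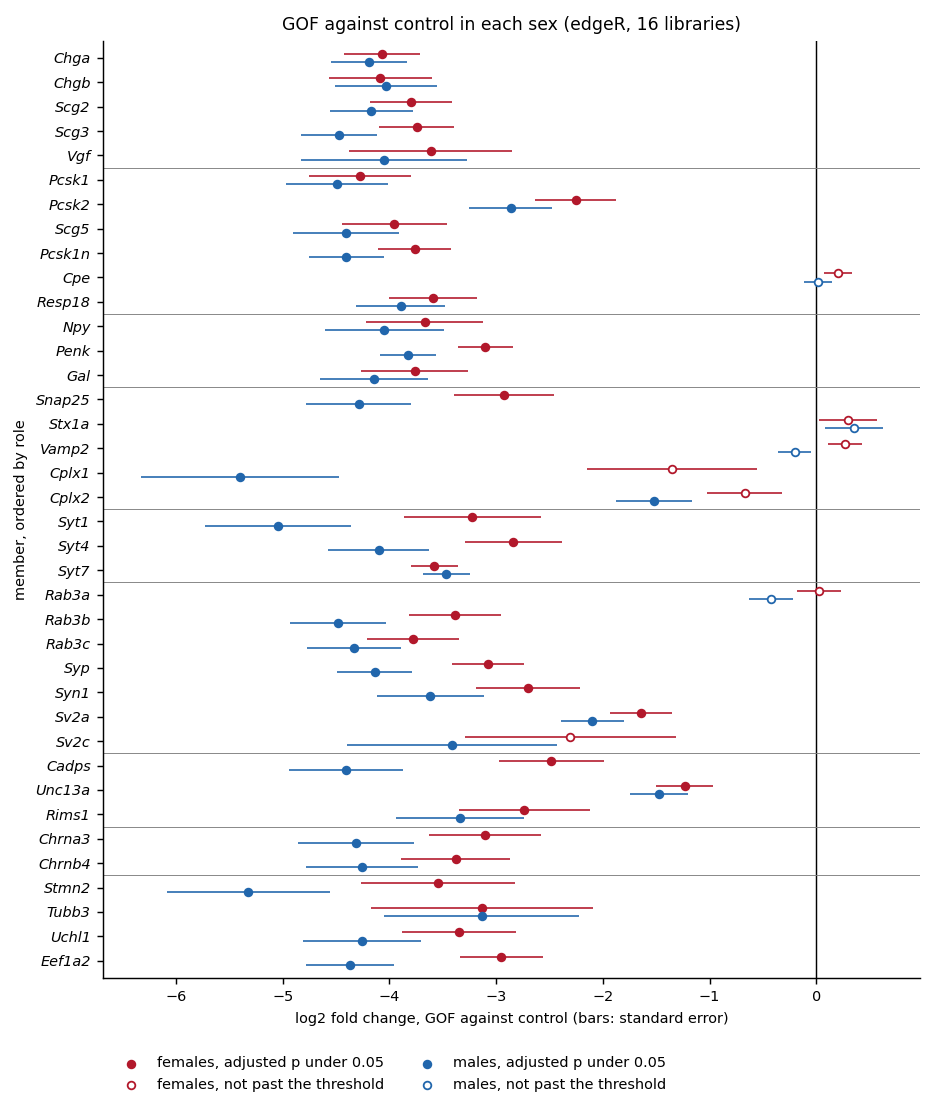
Points give the log2 fold change of GOF against control for each member in females (red) and males (blue). Bars give the approximate standard error derived from the edgeR tests over 16 libraries. Filled points passed an adjusted p of 0.05. The 31 members that passed in both sexes lie at -1.23 or below, and Cpe, Stx1a, Vamp2 and Rab3a lie around 0. Cplx1, Stmn2 and Syt1 are the lowest in males in this fit, which holds male control 2. Without that library (not drawn) the lowest in males are Pcsk1 at -4.27, Scg2 at -4.22 and Gal at -4.21.

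The make-up of the transcript pool followed from these differences. Together the 38 members took 0.850% ± 0.286 of counts in female controls and 0.189% ± 0.0177 in female GOF, and 1.31% ± 0.214 in male controls against 0.255% ± 0.0472 in male GOF (SD, n = 4). Chga, Chgb and Scg2 supplied 74.6% ± 3.66 of the member counts in female controls and 21.1% ± 9.77 in female GOF. In males the share of these 3 granins went from 71.5% ± 5.995 to 22.5% ± 4.10. Cpe supplied 11.4% ± 2.97 of member counts in female controls and 57.8% ± 9.55 in female GOF, and 10.8% ± 3.14 and 59.3% ± 1.28 in males. In GOF adrenals the larger part of the reads of the set thus came, on average, from a gene whose own change did not pass the test.

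Members tended to be highest in the same mouse of a group. Female control 2 had the highest value of the female controls for 34 of 38 members, where it was highest for 27.1% of tested genes, and female control 3 the lowest for 23 (24.9%). Female GOF 2 was highest for 31 in its group (26.6% of tested genes) and female GOF 3 lowest for 25 (24.3%). Among male controls, control 2 was highest for 32 (28.2%) and control 1 lowest for 27 (35.97%). Male GOF was the least ordered group, where GOF 4 was highest for 17 members (19.8%) and GOF 1 for 14 (26.5%). The summed CPM of the catecholamine genes was also highest in female control 2 (2169, with the other 3 between 1147 and 1185) and in female GOF 2 (281, with the others between 106 and 173). What sets these levels in a mouse was not tested.

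The members differed among themselves in male control 2. That library was the highest of all 16 for 32 members, where it was for 13.8% of tested genes, and it exceeded the median of the other 3 male controls more than 2-fold for 23 of 38, where 8.72% of all tested genes did so. The ratio was 20.8 for Tubb3, 18.1 for Sv2c, 14.8 for Cplx1, 9.35 for Stmn2, 6.97 for Syt1, 5.31 for Vgf and 4.92 for Uchl1. The 14 genes of granule cargo and its processing were divided, with 7 of them at 1.5 or above. The ratio was 1.35 for Chga, 0.996 for Chgb, 0.884 for Scg2, 0.864 for Penk, 0.828 for Gal, 0.892 for Cpe and 1.15 for Resp18. Beside Vgf, those at 1.5 or above were Npy at 2.71, Scg5 at 2.64, Scg3 at 1.86, Pcsk1n at 1.85, Pcsk2 at 1.76 and Pcsk1 at 1.54, where the median over all tested genes was 1.01. Over roles, the median ratio was 0.864 for the peptides, 1.35 for the granins and 1.65 for processing, 7.14 for the cytoplasmic proteins, 3.32 for the calcium sensors, 3.05 for the receptors, 2.90 for priming, 2.83 for SNAREs and complexins, and 2.62 for Rab3 and vesicle membrane genes. Genes of 1 role also differed, such as Syt7 at 1.17 and Syt1 at 6.97. Of the 5 tested neuron markers 4 were high in the same library, with Prph, the intermediate filament peripherin of peripheral neurons, at 44.3 times the median of the other male controls, Nefl at 26.4 times, Nefm at 25.01 times and Nefh at 4.51 times, while Rbfox3 was at 0.772 times. The 8 catecholamine genes ran from 1.07 times for the vesicular transporter gene Slc18a1 to 10.7 times for the noradrenaline transporter gene Slc6a2, with Pnmt, which makes adrenaline, at 1.90 times. Chat, Slc18a3 and Slc5a7, the defining markers of cholinergic neurons, stood at 0.0585, 1.02 and 1.67 CPM there. The share that neuron transcripts had in the member values of this library was not tested.

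**Figure D4:**
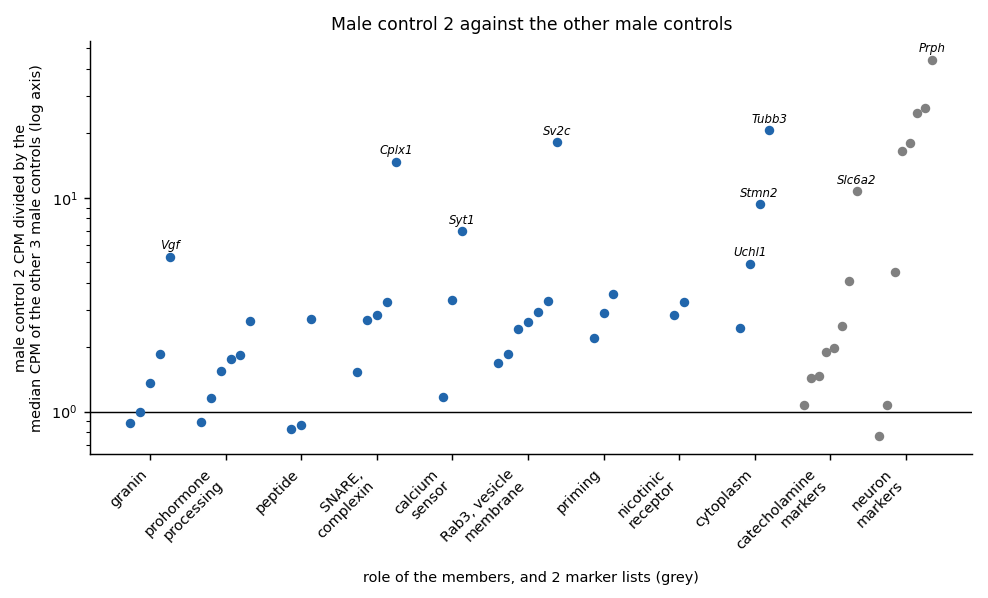
Points give the CPM of male control 2 divided by the median CPM of the other 3 male controls (log axis), for the 38 members by role (blue) and for 2 marker lists (grey), and the line marks a ratio of 1. Tubb3, Sv2c and Cplx1 are the highest members at 20.8, 18.1 and 14.8, the peptides lie between 0.828 and 2.71, and Prph is the highest marker at 44.3.

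Leaving out male control 2 kept the main result in males. Then 32 members fell and Stx1a rose, all 32 of them among the 34 called with it, and the median log2 fold change of the members was -3.62. In the female comparison 34 members fell without it, the 31 and Cplx1, Cplx2 and Sv2c, with a median of -3.13. Cplx1 and Cplx2 then passed in both sexes and Sv2c in females alone, while Tubb3 passed in females alone. Without male control 2 and the female controls 1 and 3 together, 34 members fell in females and 32 in males, and 1 rose in males. Shares of all tested genes called are given for the fit of all 16 libraries alone. Calls in fits without a library, here and below, therefore have no such share beside them.

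Sex was compared next within each genotype, in libraries that the comparisons above also use. In controls 19 of 38 members were higher in males and 0 lower, where 13.5% of all tested genes were higher and 9.89% lower. Male control 2 carried most of these calls, since without it 4 were left: Penk, Tubb3, Cpe and Pcsk1n, all 4 among the 19. Without it and the female controls 1 and 3, Penk alone was left. Other single libraries mattered as well, since 5, 3 and 5 calls were left without female control 1, 3 and 4. Penk was 3.52-fold higher in males (log2 fold change 1.81 ± 0.239 SE, adjusted p = 0.000106), and 3.69-fold without male control 2 (adjusted p = 0.000148, edgeR). Cpe was 1.51-fold higher (adjusted p = 0.00527) and 1.56-fold without that library (adjusted p = 0.00614). Pcsk1n was 2.21-fold higher (adjusted p = 0.0152) and 1.82-fold without it (adjusted p = 0.0459). Tubb3 was 15.8-fold higher (adjusted p = 0.00871) and 2.88-fold without it (adjusted p = 0.0240). The calls lost with that library were those of Uchl1, Stmn2, Rab3a, Eef1a2, Rab3b, Sv2c, Syt1, Chrna3, Chrnb4, Sv2a, Syn1, Cplx1, Snap25, Syt4 and Syp. Their log2 fold changes with the library ran from 0.59 for Rab3a to 3.04 for Sv2c, and without it from 0.36 for Rab3a to 0.94 for Snap25, with Sv2c at 0.54. The granins Chga, Chgb, Scg2, Scg3 and Vgf had log2 fold changes between 0.38 and 0.87, and none of these 5 passed (adjusted p between 0.0526 and 0.726). That of Vgf turned to -0.42 without male control 2. With the range of the title number as a covariate, 2 of the 19 calls were left, Penk (adjusted p = 0.00788) and Cpe (adjusted p = 0.0337, edgeR). Of the 17 lost, 16 had a larger log2 difference than without the covariate, such as 1.59 for Eef1a2 in place of 1.08. Controls of both sexes share only the range of the lowest numbers. There female control 1, which held kidney transcripts, stands against male controls 1, 2 and 3. Sex and range can thus hardly be told apart among the controls.

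In GOF adrenals 4 members were higher in males and 0 lower, where 13.3% of tested genes were higher and 16.3% lower. Penk was 2.13-fold higher (adjusted p = 0.00460), Cpe 1.32-fold (adjusted p = 0.0317), Syt7 1.55-fold (adjusted p = 0.0345) and Tubb3 15.8-fold (adjusted p = 0.0107, edgeR). Penk, Cpe and Tubb3 thus passed in both genotypes in this fit. With the range of the title number as a covariate none of the 4 passed. The log2 differences were then 1.11 for Penk (adjusted p = 0.0834), 4.99 for Tubb3 (0.0971), 0.51 for Cpe (0.148) and 0.66 for Syt7 (0.266, edgeR). GOF libraries of both sexes share only the range of the lowest numbers, with female GOF 1 against male GOF 1 and 2. Sex and range can thus hardly be told apart here either. The lowest male GOF value of Tubb3, 5.69 CPM, exceeded the highest female GOF value, 0.985, more than 5-fold. With the spread estimated without male control 2, these 4 kept their calls, Sv2c was higher as well (log2 fold change 1.93 ± 0.525, adjusted p = 0.0125), and Cplx1 was lower in male GOF (-1.40 ± 0.307, adjusted p = 0.00345). Leaving out female GOF 1, female GOF 4, male GOF 1 or male GOF 4 left 2 calls each.

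Whether the GOF effect differed between the sexes was tested with the interaction term. Of 38 members 0 passed, where 4.21% of tested genes did (2.61% lower and 1.59% higher), and 5 had an unadjusted p under 0.05 (Cplx1, Cadps, Eef1a2, Syp and Snap25), while DESeq2 called 1. The largest difference was that of Cplx1, -4.05 ± 1.16 (SE) on the log2 scale (adjusted p = 0.0666, edgeR), and that of Chgb was 0.05 ± 0.598. Without male control 2, Cplx1 and Tubb3 passed, and the share of tested genes that passed in that fit is not given here. In it Cplx1 fell further in males than in females, with a difference of -1.80 ± 0.423 (SE, adjusted p = 0.0346). Tubb3 fell less in males, with a difference of 2.46 ± 0.623 (adjusted p = 0.0486, edgeR). Cplx1 had only 9 to 12 counts in the male GOF libraries and 21 to 44 in the female GOF libraries. Leaving out male control 1 or male control 4 instead gave 1 call each. The median interaction of the members was -0.60 with that library and -0.25 without it.

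Other genes of the same pathway were read from lists that hold no member. Of all tested genes 20.6% fell and 19.0% rose in females, and 21.8% fell and 15.2% rose in males. Of 15 further genes of granule content and membrane, 12 were tested, and 10 fell in each sex. The most abundant was Pam, the enzyme that amidates peptides, with log2 fold changes of -0.69 in females and -1.16 in males, smaller than those of the granins. Dbh, which makes noradrenaline inside the granule, had -3.25 and -3.78. Adcyap1, the precursor of the neuropeptide PACAP, was the 1 gene of that list called higher, in males (log2 fold change 3.07, adjusted p = 0.0486), and was not called without male control 2. It was named after its values were seen. Of 30 further genes of neuronal exocytosis 29 were tested, and 16 fell and 2 rose in females, while 20 fell and 2 rose in males. Doc2b, a soluble calcium sensor, and Unc13c, a Munc13 paralog, were the genes that rose in both sexes, and Unc13c was named after its values were seen. Doc2b rose by 1.08 in females (adjusted p = 7.00e-05) and 0.40 in males (adjusted p = 0.0433, edgeR). Of 15 tested genes of exocytosis in all cells, 5 fell and 0 rose in females and 5 fell and 3 rose in males. Their median log2 fold change was -0.12 and -0.17, against -0.93 and -1.31 in the neuronal list and -2.97 and -3.46 in the granule list. Leaving out male control 2 gave male medians of -0.07, -0.75 and -2.46 for these 3 lists, with 4, 16 and 8 genes lower. Nsf, the ATPase that takes SNARE complexes apart, fell in both sexes, with log2 fold changes of -0.70 and -0.88. Among 16 paralogs of members, 3 fell and 2 rose in females, and 5 fell and 1 rose in males (5 and 0 without male control 2, and 5 and 2 in females). No shift of the paralogs as a set was read from these counts. The paralogs that fell in both sexes were Stmn3, Stmn4 and Tubb4a, forms known from neurons, and they were named after their values were seen.

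Markers of other cells were read in the same comparison, where 20.6% of all tested genes fell and 19.0% rose in females. In males 21.8% fell and 15.2% rose. Of 8 Schwann cell markers 7 fell in each sex (6 in males without male control 2), with a summed level of 46.8 to 132 CPM in female controls and 29.8 to 36.5 in female GOF, and 65.1 to 324 in male controls and 20.3 to 39.2 in male GOF. Of 5 tested neuron markers 2 fell in females and 4 in males, and the sum over the list was 16.6 to 24.98 CPM in controls and 5.58 to 9.28 in GOF of females, 20.2 to 439.6 in male controls and 8.96 to 11.6 in male GOF. The sums hold all 8 genes of the list, and Chat, which was too low to be tested, had no count in female GOF. When male control 2 was left out, 4 of the 5 fell in each sex. Of 7 adipocyte markers 6 fell in females and 7 in males, with sums of 1447 to 1703 and 361 to 726 CPM in females and 1797 to 3309 and 248 to 300.3 in males. Of 8 cortex markers 1 fell (Star) and 2 rose (Hsd3b1 and Nr5a1) in each sex, but in males 0 fell and 1 rose without male control 2. The part of Schwann cell, neuron and adipocyte transcripts in the fall of the members was not tested.

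The labels name no batch, but numbers in the sample titles fell into 4 ranges, whose meaning is not stated. Within the range of the lowest numbers, the median log2 ratio of the members was -3.37 between 1 female GOF library and female control 1, which held kidney transcripts. Of the members 34 were lower there, where 46.7% of tested genes were, since 1 library against 1 puts nearly every gene on one side. In males of that range 33 members were lower in both GOF libraries than in male controls 1, 2 and 3, where 25.5% of tested genes were, with a median of -4.29. The count was again 33 without male control 2, and the median -3.53. Within the second range, 34 members were lower in each of 2 female GOF libraries than in female controls 2, 3 and 4, where 26.4% of tested genes were, with a median of -3.10, and again 34 without female control 3, with a median of -3.30. Within the range of the highest numbers, 35 were lower in each of 2 male GOF libraries than in male control 4, where 41.6% of tested genes were, with a median of -3.56. The remaining range holds a single female GOF library. Between the sexes in controls, 33 members were higher in male controls 1, 2 and 3 than in female control 1, where 33.0% of tested genes were, with a median of 1.35, and without male control 2 the median was 0.86. In GOF libraries of that range 26 members were higher in both males than in the female, where 37.8% of tested genes were, with a median of 0.51. The values within ranges without male control 2 or female control 3 were chosen after the data were seen.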

How the data were processed

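Bulk RNA sequencing counts and FPKM values of 16 mouse adrenal libraries were used. The counts are raw read counts per Ensembl gene, made by the authors with Bowtie2 2.2.3, TopHat2 2.0.12 and HTSeq 0.6.1, per the submitters' processing notes, which also name DESeq 1.18.0. The FPKM values were deposited in a table of their own. The genome build and the use of strand in counting are not given in the sources used here, and 54723 of 54838 identifiers matched GENCODE M21 (GRCm38), from which symbols and coordinates come. Gene lengths implied by counts and FPKM matched mean M21 transcript lengths within 1% for 98.0% of 34180 genes.

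From the counts, edgeR 4.0.16 (R 4.3.3; TMM factors, its filter on low counts, robust quasi-likelihood fit, 1 mean per group, 16 libraries) tested GOF against control in each sex, sex in each genotype, and the interaction, with Benjamini-Hochberg adjustment over 18214 genes. The standard errors given with edgeR fits were derived from the tests. Each is the size of the log2 fold change divided by the square root of the F statistic, and so is approximate. CPM used TMM-scaled totals. Alternatives were other scalings and filters, DESeq2 1.42.0, limma 3.58.1 on log2(FPKM + 1) and log2(FPKM + 0.1), voom with sample weights, the range of the title number as a covariate, only the groups compared, and libraries left out. The edgeR comparison of GOF with control in females was tried on simulated counts of 18214 genes, 200 of them changed. It called 97.0% of the 4-fold and 64.0% of the 2-fold changes, and 4.17% of its calls were unchanged genes. The simulation gave every gene the same spread and held no outlying library. Other comparisons and the alternatives were not simulated. Full values are given for the most abundant member in CPM of each role and for the 3 members with the most and the 3 with the least negative change per GOF comparison, and every member called between sexes is named. Values of other members were added where a single library or a near relative bears on them. Other lists are given as counts, with values for at most the 3 most abundant genes. Exceptions are Adcyap1 and the neuron and catecholamine genes given for male control 2. The members and lists were chosen with earlier results of these data known.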

Additional observations from a re-analysis of the deposited data

Results flagged for a closer look

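In 38 of 152 pairs of a member and a group, the highest or lowest library lay far from the other 3, with a gap to the nearest of them past Dixon's critical share of the group's whole range. Chance alone flags about 1 in 20 groups, and members of a library share that library. Male control 2 gave 19 of the 38, all as the highest library, and for none of these except Npy did the gene encode granule cargo or a processing enzyme. Its SNARE, complexin and sensor genes were Snap25 at 163.7 CPM, Vamp2 at 270.7, Cplx1 at 39.7, Cplx2 at 394, Syt1 at 286 and Syt4 at 83.9. Its genes of vesicle trafficking and priming were Rab3b at 126 CPM, Syp at 133, Syn1 at 68.9, Sv2a at 59.95, Sv2c at 97.7 and Cadps at 72.1. The receptor subunits Chrna3 and Chrnb4 were at 120.1 and 57.1 CPM there. Among the cytoplasmic proteins Stmn2 was at 258 CPM, Tubb3 at 279, Uchl1 at 314 and Eef1a2 at 208, and the peptide gene Npy was at 398.

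Female control 2 gave 8, again all as the highest library, and here cargo and processing genes led. They were Chga at 3452 CPM, Pcsk1 at 64.4, Pcsk1n at 178, Resp18 at 34.3, Gal at 57.7, Syt4 at 21.4, Syp at 53.5 and Uchl1 at 76.5. No liver or kidney transcripts stood out in that library. In female GOF 2, Gal at 4.83 CPM, Stx1a at 19.8 and Rab3b at 4.58 were the highest of their group, and Pcsk2 at 0.824 was the lowest. Cpe at 1287 CPM was highest in female GOF 3. In male GOF 1, Pcsk1n at 15.5 CPM and Tubb3 at 17.1 were the highest of their group. Rab3a at 63.3 CPM in male GOF 2, Stx1a at 22.5 and Sv2c at 5.98 in male GOF 3 and Resp18 at 2.81 in male GOF 4 were the other values, each the highest of its group.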

How the results depend on the processing

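The fall of the set held under each setting tried, with 28 to 34 members lower in females and 29 to 34 in males, and with 30 to 34 and 32 to 35 when 1 library was left out. The lowest counts came from DESeq2, which gave 33 members an adjusted p. In males 1 member was called higher with voom weights, 1 without the libraries that held liver or kidney transcripts, and 0 to 1 with a library left out. The male calls of Tubb3 and Sv2c were lost with the title range as a covariate, with voom, with log2(FPKM + 1) and with only the groups compared (log2 fold changes of -3.12 and -3.38 there, -2.47 and -3.28 with the title range, and -1.37 and -2.10 with voom), and that of Tubb3 also with log2(FPKM + 0.1). The female call of Tubb3 was lost under the first 3 of these and with no filter, and that of Rims1 with log2(FPKM + 1) and no filter (adjusted p = 0.0953). The log2 fold change of Rab3a in females turned to -0.0059 with upper-quartile factors, -0.050 with at least 10 counts in every library and -0.0070 with only the groups compared, and with a library left out it ran from -0.0575 to 0.0848, with 9 values below 0. That of Cpe in males turned to -0.041 without the liver and kidney libraries and ran from -0.0947 to 0.0994 with a library left out, with 7 values below 0. For sex in controls, in place of 19 calls there were 3 with no filter, 2 with the title range, 8 with log2(FPKM + 1) and no filter, 4 with only the groups compared, 1 without the liver and kidney libraries and 3 to 23 with a library left out, all of them higher. The other settings gave 14 to 22, the most with voom, and DESeq2 gave 16. For sex in GOF, in place of 4 calls there were 0 with the title range, 2 with voom and 2 to 6 with a library left out (2 to 5 higher, 0 to 1 lower), and 1 was lower with only the groups compared and without the liver and kidney libraries. For the interaction there was 1 call, lower, with DESeq2, and 0 to 2 with a library left out (0 to 1 in each direction), and the median turned to 0.00045 without the liver and kidney libraries. The cause of these shifts was not tested. No paired analysis was possible because the labels give no replicate numbers that the groups share. Low depth limits Rims1 most, with 0 counts in female GOF 3. Antisense genes overlap exons of Pcsk2, Pcsk1n, Resp18, Penk, Syt4, Syt7, Rab3a, Rab3b, Syp, Syn1, Unc13a and Uchl1, so their counts may hold reads of those genes.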
